A study of Danio rerio with 69 samples.

Results

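The pineal gland of 5-day-old zebrafish larvae was compared with the brain of larvae of the same age. The comparison used 14 of the 69 arrays of the study, chosen by their labels for age and tissue. There were 5 pineal arrays taken by day and 4 taken by night, and 3 brain arrays taken by day and 2 taken by night. Pineal glands were dissected by hand from transgenic fish whose green fluorescent protein is driven by the promoter of aanat2, and the fluorescence marked the tissue to be cut out. Brain here means brain tissue left after the pineal and both eyes had been taken away. All fish lived on a cycle of 14 light and 10 dark hours at a temperature of 28.5 °C, and no group received any other treatment named in the labels. The labels call the samples biological replicates and do not say how many larvae were pooled in each. The remaining arrays came from both tissues of 3-day and 10-day larvae and of adults aged 3 months or 1 to 2 years.

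The zebrafish pineal is a small organ at the dorsal midline of the forebrain that holds photoreceptor cells of its own. Its photoreceptors turn light into an electrical signal with proteins closely related to those of retinal rods and cones, and they make melatonin at night through the enzyme Aanat2. The gland starts to work within the first days of development, so that at 5 days it is already both a light sensor and a rhythmic gland.

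Each value below is a level on the log2 scale, taken as log2 of the probe set's intensity plus 16 and normalised over all arrays, so that a value near 4 means an intensity near 0. A difference is the pineal mean minus the brain mean, with day and night weighted equally, and is given with its standard error (SE) from a limma fit over all arrays (9 pineal and 5 brain arrays at 5 days). The added constant makes differences of dim genes look smaller than they were. A probe set was called different when its Benjamini-Hochberg adjusted p lay below 0.05 and the difference was at least 2-fold. Of 15502 probe sets, 803 were called (5.18%), of which 283 were higher in pineal (1.83%) and 520 were lower (3.35%). The median difference over all probe sets was 0.03. The 9 pineal arrays did not overlap with the 5 brain arrays for 126 probe sets that were higher (0.813%) and 237 that were lower (1.53%). With each gene represented by 1 probe set, 143 of 8793 genes were higher in pineal (1.63%) and 355 were lower (4.04%). In whole tissue, fewer cells of a type and less RNA per cell cannot be told apart.

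Median array intensity ran from 126.2 to 168.2 in pineal and from 131.5 to 170.2 in brain. Degraded RNA can raise the 3'/5' signal ratio of the array's GAPDH control, and this ratio was above 3 on pineal day replicate 2 (3.70) and brain day replicate 2 (5.69). Pineal day replicate 2 also stood apart in several genes described here, and correlations within the pineal day group ran from 0.767 to 0.922. With both arrays of high ratio left out, 804 probe sets were called, of which only 663 were also called with all arrays kept. The similar total thus hides calls that were lost and others that were gained. Of 7 pineal marker genes measured, 6 were higher in the tissue labelled pineal (aanat2, exorh, tph2, crx, otx5 and gngt1), and the cone transducin gene gnat2 was not called.

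Several genes of melatonin synthesis were higher in pineal when day and night were averaged. Of 16 genes listed for melatonin synthesis, its cofactor and serotonin breakdown, 9 were measured. Of the 9, 5 were higher in pineal (55.6%, against 1.63% of all genes) and 0 were lower. The median difference was 1.54. This median was 1.29 with day arrays, 0.98 with night arrays and 0.435 over all 18 probe sets of the list. With night arrays only 3 were higher, and 3 were also higher with dim probe sets left out. Tryptophan hydroxylases make the serotonin precursor from which melatonin is built. Levels of tph1a in pineal were 6.99, 7.88, 9.53, 9.12 and 8.91 by day and 9.23, 9.16, 9.32 and 10.45 by night. In brain, tph1a measured 5.28, 6.41 and 6.91 by day and 6.05 and 5.57 by night. Each pineal array lay above each brain array, though pineal day replicate 1 did so by little, and the difference was 3.01 ± 0.32 (SE, limma adjusted p = 2.15e-11), or 8.05-fold. The sister gene tph2 measured 9.05 to 10.54 in pineal (median 9.56) and 6.97, 8.48, 7.21, 7.66 and 7.43 in brain. Its groups did not overlap either, and the difference was 2.04 ± 0.26 (limma adjusted p = 1.52e-08).

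The next enzyme of the route is the decarboxylase Ddc, which yields serotonin. Pineal levels of ddc ran from 9.10 to 11.30 (median 9.98), and brain levels were 7.76, 8.09, 8.04, 9.17 and 9.01. The lowest pineal array, day replicate 4, fell just under the higher brain night array, and the difference was 1.62 ± 0.25 (limma adjusted p = 2.34e-06). A second ddc probe set differed by only 0.38. The difference of gch2, whose enzyme starts the synthesis of the cofactor that tryptophan hydroxylase needs, was 1.54 ± 0.45 (limma adjusted p = 0.0227), and 0.78 at a second probe set. Its call was lost without brain day replicate 2 (difference 1.21), brain night replicate 1 (1.39) or brain night replicate 2 (1.70).

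The aanat2 gene encodes the enzyme whose activity sets the nightly rhythm of melatonin. It measured 6.0, 6.72, 6.95, 6.94 and 6.08 in pineal by day and 9.58, 9.26, 9.80 and 9.65 by night. Brain arrays stood at 5.55, 4.26 and 5.92 by day and at 5.89 and 4.26 by night. The 4 pineal night arrays were far above all others, while the lowest pineal day array lay only just above the highest brain array. Averaged over both times the difference was 2.90 ± 0.36 (limma adjusted p = 3.51e-09), or 7.45-fold. By day it was 1.29 and by night 4.5, but the test of that change in the tissue difference did not pass (adjusted p = 0.074), and aanat2 was not called when only day arrays were compared.

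**Figure D1:**
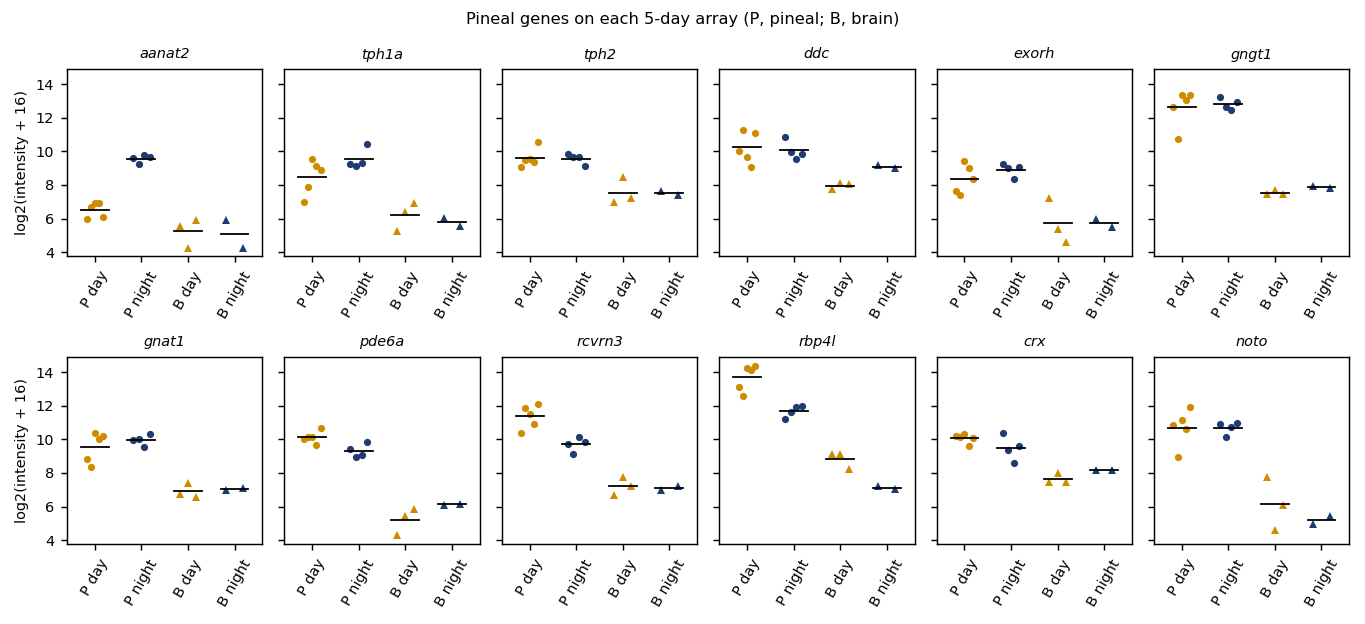
Levels of 12 genes of melatonin synthesis, phototransduction and photoreceptor identity on each 5-day array, as log2(intensity + 16). Each point is 1 array in the groups pineal day, pineal night, brain day and brain night, and each black line is a group mean. The pineal points lie above the brain points for these genes, except for an overlap in ddc, and aanat2 is higher by night than by day in pineal.

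Of the 23 gene lists examined, phototransduction held the most genes that were higher in pineal. Of 27 measured genes, 13 were higher (48.1%, against 1.63% of all genes) and 0 were lower (against 4.04%). Of the 27, 11 were higher without overlap between the arrays of the 2 tissues, against 70 of all 8793 genes. Light is caught by an opsin, which activates the G protein transducin. The pineal opsin gene exorh measured 7.65, 7.42, 9.41, 9.0 and 8.36 by day and 9.25, 9.03, 8.36 and 9.06 by night in pineal. In brain it measured 7.24, 5.39 and 4.62 by day and 5.98 and 5.52 by night. The tissues did not overlap, with brain day replicate 1 closest to the pineal arrays, and the difference was 2.89 ± 0.38 (limma adjusted p = 2.18e-08).

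Among transducin subunits, the rod-type gamma subunit gene gngt1 measured 12.62, 10.74, 13.37, 13.06 and 13.36 in pineal by day and 13.21, 12.63, 12.45 and 12.97 by night. Brain arrays measured 7.49, 7.69, 7.47, 7.96 and 7.80. The gap between tissues was wide even though pineal day replicate 2 lay below the other pineal arrays, and the difference was 5.01 ± 0.38, or 32.2-fold (limma adjusted p = 4.39e-16). The cone-type gamma subunit gene gngt2a was 4.97 ± 0.42 higher, with pineal arrays from 10.37 to 12.25 and brain arrays from 4.29 to 6.94. The rod-type alpha subunit gene gnat1 was 2.78 ± 0.42 higher (limma adjusted p = 8.97e-07), with pineal arrays from 8.37 to 10.40 and brain arrays from 6.58 to 7.38.

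The other cone-type transducin subunits were not called higher. For gnat2, the cone-type alpha subunit gene, pineal day arrays stood at 12.08, 11.48, 10.12, 10.32 and 11.81 and pineal night arrays at 11.39, 9.77, 9.93 and 9.61. Brain arrays were at 10.72, 8.88, 9.10, 10.68 and 10.36, inside that range or just below it. The difference was 0.62 ± 0.36 (limma adjusted p = 0.362), at 1.60 by day and -0.35 by night. The second cone-type gamma subunit gene, gngt2b, had a difference of -1.85 ± 0.61 that narrowly missed the threshold (limma adjusted p = 0.0509). It would have counted as lower in pineal without pineal day replicate 1 (-2.10), pineal day replicate 4 (-2.02), brain day replicate 2 (-2.10) or pineal night replicate 1 (-1.93), and likewise without scaling (-2.01) or with median centring (-1.99).

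The effector enzyme of the cascade is phosphodiesterase 6, which breaks down cyclic GMP. The rod-type catalytic subunit gene pde6a measured 10.01, 10.15, 10.15, 9.68 and 10.66 in pineal by day and 9.44, 8.98, 9.05 and 9.84 by night. Brain arrays measured 4.28, 5.44, 5.84, 6.08 and 6.16. No brain array came near the pineal arrays, and the difference was 4.07 ± 0.33, or 16.8-fold (limma adjusted p = 4.44e-15). The cone-type catalytic subunit gene pde6c was higher by 1.62 ± 0.39 (limma adjusted p = 0.00347). Of the cone-type inhibitory subunits, pde6hb was higher by 1.87 ± 0.39 (limma adjusted p = 0.000384). For the other one, pde6ha, the difference was 0.51 ± 0.42 (limma adjusted p = 0.562). Its pineal arrays ran from 11.21 to 13.30 by day and from 7.81 to 9.75 by night, which placed them on both sides of the brain arrays (9.13 to 11.47).

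Recovery from light needs new cyclic GMP and proteins that sense calcium. The guanylate cyclase gene gucy2f was 3.55 ± 0.34 higher in pineal (limma adjusted p = 1.08e-12), although a second probe set differed by 0.57 only. Its activator gene guca1aa was 1.65 ± 0.38 higher (limma adjusted p = 0.00167). The calcium sensor gene rcvrn3 measured 10.40, 11.86, 11.52, 10.92 and 12.13 by day and 9.70, 9.14, 10.11 and 9.86 by night in pineal, against 6.69, 7.74, 7.21, 7.0 and 7.21 in brain. All 9 pineal arrays were higher than the brain arrays, the day arrays most of all, and the difference was 3.38 ± 0.31 (limma adjusted p = 2.69e-13). Its relative rcvrn2 was higher by 2.34 ± 0.47 (a second probe set by 0.69), the phosducin gene pdcb by 2.35 ± 0.37 and unc119.2, whose protein binds transducin, by 3.12 ± 0.35. The median difference of the 27 genes was 1.60 with day arrays and 0.80 with night arrays. For 19 of the 27 genes the day difference was the larger one, and for 19 of the 27 the brain night mean was above the brain day mean. The same counts were not made over all genes. Summed intensity of the 27 genes was 39302 to 62476 on pineal day arrays and 26554 to 33941 on pineal night arrays. On brain arrays it was 11800 to 14734 by day and 12129 to 13666 by night. None of these genes passed the test of tissue by time of day.

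On the list of photoreceptor structure and the handling of retinoids, the vitamin A derivatives that opsins bind, 8 of 22 measured genes were higher. This was 36.4%, against 1.63% of all genes. None of the 22 was lower, and the median difference was 0.36. The other 14 were not called, among them rom1a, rom1b, prph2a, prph2b, prom1b, crb1 and ift88, which belong to photoreceptor structure. The retinol-binding protein gene rbp4l measured 13.09, 12.58, 14.26, 14.10 and 14.38 by day and 11.20, 11.65, 11.91 and 12.00 by night in pineal. In brain it measured 9.15, 9.15 and 8.25 by day and 7.21 and 7.02 by night. It was lower by night than by day in both tissues, the tissues did not overlap, and the difference was 4.70 ± 0.40, or 26.0-fold (limma adjusted p = 1.63e-14). The gene rpe65a, whose enzyme regenerates visual chromophore, lay between 11.58 and 13.34 in pineal and between 7.96 and 9.44 in brain (difference 3.70 ± 0.33, limma adjusted p = 1.20e-13).

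Carriers of retinoids were also higher. The difference was 3.62 ± 0.43 for rbp3, which encodes the retinoid carrier of the space around photoreceptors. It was 2.56 ± 0.33 for rlbp1a, which encodes a retinal-binding protein, and 1.93 ± 0.21 for stra6, which encodes the receptor that takes up retinol. The enzyme gene cyp27c1, whose product converts vitamin A1 to vitamin A2, was higher by 1.89 ± 0.30. The synaptotagmin gene syt5a, of a family that senses calcium at synapses, was higher by 3.79 ± 0.34. Of the 8, rp1l1a had the smallest difference (1.18 ± 0.37, limma adjusted p = 0.04), and it lost its call in 9 of 14 fits that each left out 1 array, where the difference ranged from 0.76 to 1.56.

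Transcription factors of pineal and photoreceptor cells came next. Of 34 measured, 8 were higher in pineal (23.5%, against 1.63% of all genes) and 1 was lower (2.94%, against 4.04%), with a median difference of 0.56. The homeobox gene noto, needed for neurogenesis in the zebrafish pineal and better known from the notochord, measured 10.84, 8.93, 11.16, 10.60 and 11.91 by day and 10.90, 10.15, 10.74 and 10.96 by night. Brain arrays measured 7.76, 4.59, 6.11, 4.95 and 5.46. The groups lay apart, with brain day replicate 1 highest among brain arrays, and the difference of 5.01 ± 0.46, or 32.2-fold, was one of the largest of all genes (limma adjusted p = 1.75e-13). The nuclear receptor gene nr2e3, a regulator of rod fate, was higher by 2.93 ± 0.26 (limma adjusted p = 8.97e-14).

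Members of the Otx family, homeobox factors of the forebrain and of photoreceptors, were all higher where called. For otx1 the pineal arrays were tightly grouped between 11.06 and 11.76 (median 11.34), and the brain arrays stood at 8.09, 7.56, 9.52, 9.39 and 9.56. The tissues did not overlap, with brain day replicates 1 and 2 lowest, and the difference was 2.4 ± 0.20 (limma adjusted p = 1.41e-14), while a second probe set differed by 0.99. The photoreceptor regulator crx measured 10.17, 10.13, 10.29, 9.62 and 10.08 by day and 10.38, 9.38, 8.58 and 9.59 by night, against 7.45, 7.97, 7.44, 8.16 and 8.15 in brain. Pineal night replicate 3 came closest to the brain arrays, without reaching them, and the difference was 1.88 ± 0.30 (limma adjusted p = 3.45e-06). The difference was 1.15 ± 0.26 for otx2b and 1.38 ± 0.36 for otx5 (limma adjusted p = 0.00844). For otx5 it was 2.42 by day and 0.34 by night, and the call was lost without brain night replicate 1 (difference 1.09).

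The proneural genes ascl1a and neurod4, which drive cells towards a neuronal fate, were higher by 1.32 ± 0.24 and 1.56 ± 0.42. The call of neurod4 was lost without brain night replicate 1 (difference 1.19). The LIM homeobox gene isl2a was the 1 member that was lower (-1.78 ± 0.42, limma adjusted p = 0.00272), and a further member was called lower without pineal day replicate 5. With night arrays only, 5 members were higher and 0 were lower.

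No clock gene was called. Of 28 measured, 0 passed the limma call and the median difference was 0.19. Without the fold limit 2 passed the adjusted p, namely rorab (0.89 ± 0.23) and nfil3-5 (0.72 ± 0.23), and 5 had an unadjusted p below 0.05, all of them higher in pineal. Over all 15502 probe sets, 435 passed the adjusted p without the fold limit with a positive difference and 676 with a negative one. A difference below 2-fold could not be called under the full rule. When pineal night replicate 4 was left out, 1 member was called. The light-induced clock gene per2 measured 12.79, 13.53, 11.52, 12.24 and 12.85 by day and 9.71, 10.02, 10.65 and 8.62 by night in pineal. In brain it measured 13.44, 13.55 and 12.94 by day and 8.22 and 9.08 by night. Both tissues were high by day and low by night, and the difference between them was 0.19 ± 0.46 (limma adjusted p = 0.883).

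Most of the largest rises were on these lists, which were chosen with earlier results of these data known. Among the 25 genes that were highest in pineal over brain, 10 were on the phototransduction list, 5 on the list of photoreceptor structure and retinoid handling, 3 were transcription factors of these cells and 2 belonged to melatonin synthesis. The arrays of 23 of the 25 did not overlap, the exceptions being ppdpfa (2.44) and pla1a (2.32). These 25 were picked for large differences on the same arrays, so neither count is a separate result. Others on this list were asip2b (2.96 ± 0.28), an agouti family gene, and cnga1a (2.96 ± 0.37), which encodes a subunit of the cyclic nucleotide-gated channel of photoreceptors. The list also held rspo1 (2.42 ± 0.23), which encodes an activator of Wnt signalling.

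**Figure D2:**
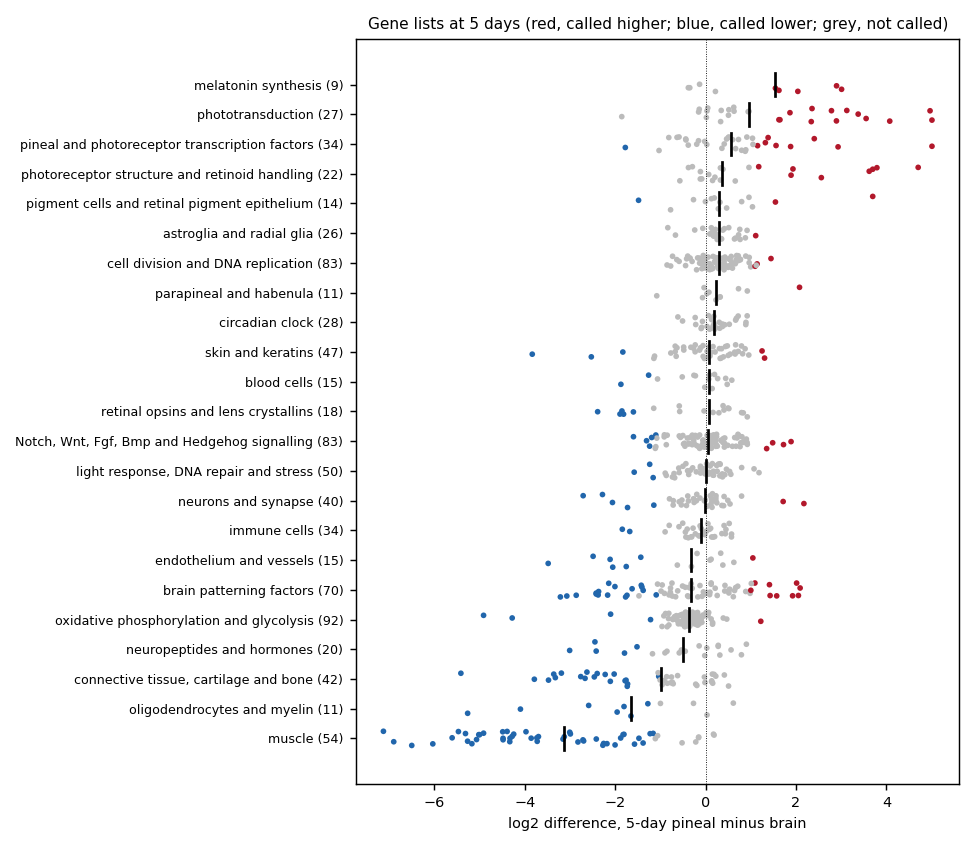
Log2 differences between pineal and brain at 5 days for the genes of 23 lists, sorted by median. Each point is 1 gene by 1 probe set, coloured red where called higher in pineal, blue where called lower and grey otherwise, and each black bar is the list's median. Melatonin synthesis (median 1.54) and phototransduction (0.96) lie at the upper end and muscle (-3.14) at the lower end.

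Regions next to the pineal were examined through markers of the parapineal and habenula, the dorsal diencephalic neighbours of the gland. Of 11 measured, 1 was higher (9.09%, against 1.63% of all genes) and 0 were lower, with a median difference of 0.23. When pineal day replicate 1 was left out, 1 was called lower. The member called higher was kctd12.1, a gene strongly expressed in the left habenula of zebrafish. It measured 9.57, 8.95, 10.08, 10.12 and 10.19 by day and 10.20, 9.64, 9.85 and 10.10 by night in pineal, against 7.80, 7.08, 8.37, 7.73 and 7.92 in brain. The tissues did not overlap, and the difference was 2.08 ± 0.28, or 4.22-fold (limma adjusted p = 4.94e-08). Its relative kctd12.2 differed by 0.03 ± 0.27 (limma adjusted p = 0.971). Whether habenular tissue was cut out with the gland was not tested.

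Transcription factors that pattern the brain differed in both directions. Of 70 measured, 9 were higher in pineal (12.9%, against 1.63% of all genes) and 17 were lower (24.3%, against 4.04%), with a median difference of -0.33. With night arrays only, 2 were higher and 8 lower, and with dim probe sets left out 10 were lower. They are grouped here by family, in families arranged after the values had been seen, as were the names of members beyond 8. For tbr1b, a T-box gene of pallial neurons, pineal arrays measured 9.53, 11.49, 10.68, 11.13, 10.18, 10.40, 10.21, 10.47 and 9.41 and brain arrays 7.30, 7.11, 9.20, 8.74 and 8.61. Brain day replicate 3 came close to the lowest pineal array without overlap, and the difference was 2.09 ± 0.42 (limma adjusted p = 0.000226). The related T-box gene eomesa was higher by 2.05 ± 0.36 and the homeobox gene emx3 by 1.92 ± 0.43. With night arrays only, none of tbr1b, eomesa and emx3 was called.

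Zic genes, which act along the dorsal midline of the neural tube, were higher for all 3 members measured, against 143 of all 8793 genes. For zic5 the pineal arrays ran from 10.88 to 11.61 (median 11.20) and the brain arrays were 8.87, 10.38, 9.44, 9.69 and 9.69. These groups did not overlap, and the difference was 1.57 ± 0.30 (limma adjusted p = 0.000113). It was 1.43 ± 0.28 for zic2a and 1.00 ± 0.25 for zic4, which lay at the 2-fold limit, lost its call in 8 of 14 fits that left out 1 array (difference from 0.90 to 1.1), and was not called without scaling (0.94) or with median centring (0.95). Of 5 Irx homeobox genes, which help to pattern the midbrain and hindbrain among other regions, 3 were higher, against 143 of all 8793 genes. The 3 were led by irx1b (2.01 ± 0.35), with irx7 at 1.41 ± 0.35. The other called one, irx1a, was at 1.09 ± 0.34 and lost its call in 6 of those 14 fits (difference from 0.85 to 1.33). None of 5 Dlx genes was called.

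Other factors were lower in pineal. The hypothalamic homeobox gene otpb measured 10.31, 8.53, 9.58, 9.84 and 8.07 by day and 10.64, 8.66, 8.69 and 7.79 by night in pineal, and 12.11, 12.07, 11.43, 12.31 and 12.64 in brain. The tissues did not overlap and the difference was -3.07 ± 0.37 (limma adjusted p = 2.01e-09). The En, Pax2, Pax5, Pax8 and Gbx families mark the midbrain-hindbrain boundary. Of their 10 measured genes, 5 were lower, against 355 of all 8793 genes, and the median difference was -1.19. The 5 were pax2a (-2.86 ± 0.36, with -0.94 at a second probe set), en2b (-2.42 ± 0.38), en1b (-2.17 ± 0.33), gbx1 (-2.14 ± 0.55) and en2a (-2.01 ± 0.34). The call of gbx1 was lost without brain night replicate 2 (-1.96).

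Hox genes give hindbrain and spinal cord their identity from front to back. Of 16 measured, 6 were lower in pineal, against 355 of all 8793 genes. A negative difference was found for 14 of the 16, against 4404 of all 8793 genes, and the median was -1.02. The largest difference was that of hoxd4a, which lay between 4.56 and 6.34 in pineal (median 5.18) and at 8.60, 9.44, 7.44, 8.30 and 8.87 in brain. The pineal values are near the bottom of the scale and well below each brain array, and the difference was -3.21 ± 0.43 (limma adjusted p = 3.58e-08). A second hoxd4a probe set differed by -0.37. The genes hoxb5a (-2.42 ± 0.41) and hoxb2a (-2.37 ± 0.43) followed. Of 4 Meis genes, whose proteins are partners of Hox proteins, 3 were lower (against 355 of all 8793 genes), among them meis2b (-2.38 ± 0.33). The Hox median was -1.79 with an added constant of 1 and -0.55 with a constant of 64, and with night arrays only 2 Hox genes were lower. None of the 16 passed the filter on dim probe sets. The calls of hoxb8a and hoxa2b were lost in 8 and 4 of the 14 fits that left out 1 array. The signs of these family medians were the same without scaling between arrays and with median centring. Muscle and cartilage genes were higher in the brain arrays too, as given further on, and their part in the Hox differences was not tested.

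**Figure D3:**
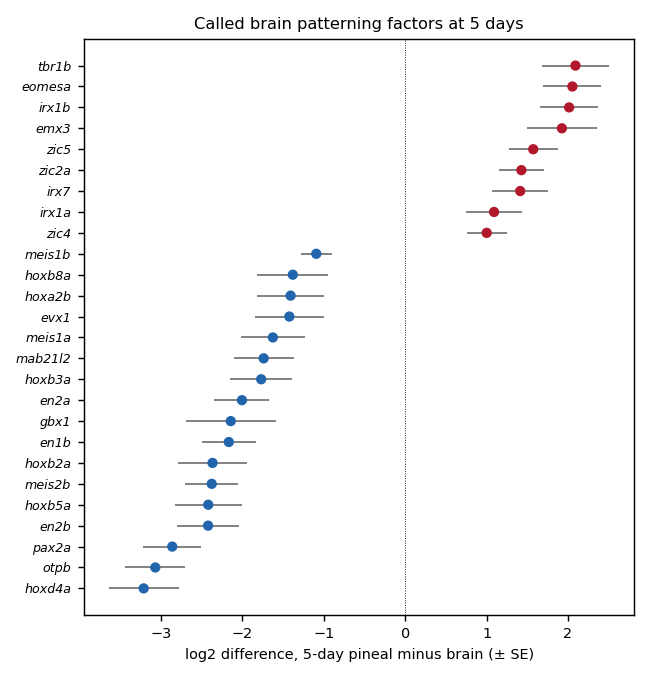
Log2 difference between pineal and brain at 5 days, with its SE, for the 26 brain patterning factors that were called. Called Tbr1, Eomes, Emx, Zic and Irx genes lie above 0, and called Hox, En, Pax2, Gbx and Meis genes lie below 0, with hoxd4a lowest at -3.21.

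General neuronal genes went both ways. Of 40 measured, 2 were higher in pineal (5.0%, against 1.63% of all genes) and 5 were lower (12.5%, against 4.04%), with a median difference of -0.02. The higher ones were inaa (2.17 ± 0.22), which encodes an intermediate filament protein, and nrgna (1.72 ± 0.35), which encodes a calmodulin-binding protein of neurons. The lower ones included pvalb7 (-2.71 ± 0.41) and pvalb6 (-1.73 ± 0.31), both parvalbumin genes, the tubulin gene tubb2 (-2.28 ± 0.37) and calb1 (-2.06 ± 0.47), which encodes the calcium buffer calbindin. The fifth was the synaptic gene snap25a, which measured 11.36, 9.17, 11.38, 11.15 and 11.47 by day and 11.59, 11.66, 11.64 and 11.12 by night in pineal. In brain it measured 11.56, 12.62, 12.57, 12.48 and 12.41. The groups overlapped only through brain day replicate 1, pineal day replicate 2 lay far below the others, and the difference was -1.14 ± 0.32 (limma adjusted p = 0.0164). Without pineal day replicate 2 it was -0.93, under the fold limit, and the adjusted p passed 0.05 without brain day replicate 2 (-1.05), brain night replicate 1 (-1.13) or brain night replicate 2 (-1.16). The neuronal RNA-binding protein gene elavl3 (0.80 ± 0.41, limma adjusted p = 0.278) and the GABA-synthesis gene gad2 (-0.52 ± 0.33, limma adjusted p = 0.411) were not called.

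Myelin genes were lower in pineal. Of 11 genes of oligodendrocytes and myelin, 7 were lower (63.6%, against 4.04% of all genes) and 0 were higher, with a median of -1.65. Myelin basic protein mbpa measured 5.54, 6.93, 7.0, 4.70 and 6.12 by day and 7.25, 6.83, 7.06 and 6.1 by night in pineal, against 11.46, 11.74, 12.099, 11.70 and 11.55 in brain. The groups were far apart, and the difference was -5.26 ± 0.44 (limma adjusted p = 6.46e-15). Summed intensity of the 11 genes was 1535 to 2810 on pineal arrays and 10104 to 13038 on brain arrays. With dim probe sets left out, 4 of the 11 were called lower. Among 26 genes of astroglia and radial glia, 1 was higher (3.85%, against 1.63% of all genes) and 0 were lower. The higher count was 0 to 2 when single arrays were left out.

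Neuropeptides and hormones of the brain and pituitary were lower for 5 of 20 genes, with 0 higher and a median of -0.49. Growth hormone gh1 measured 4.29 to 6.82 in pineal (median 5.77) and 4.55, 6.96, 9.51, 9.10 and 9.19 in brain. Brain day replicate 1 was as low as the pineal arrays, and the difference was -2.45 ± 0.47 (limma adjusted p = 0.000108). The others were pmchl (-2.42 ± 0.50), a melanin-concentrating hormone gene, prolactin prl (-1.79 ± 0.42), urotensin uts1 (-1.52 ± 0.36) and npffl (-3.01 ± 0.76). Further uts1 probe sets, dim in both tissues, differed by 0.35 and 0.41. The call of npffl was lost without brain night replicate 1 (-2.66), and of the 20 genes 0 were called lower with day arrays only and 1 with dim probe sets left out.

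Most of the largest falls were in genes of skeletal muscle. Of 54 muscle genes measured, 46 were lower (85.2%, against 4.04% of all genes) and 0 were higher, with a median of -3.14. Of the 54, 35 were lower without overlap between tissues, against 171 of all 8793 genes. The fast myosin light chain gene mylpfa measured 8.42, 6.95, 7.58, 8.85 and 6.76 by day and 7.12, 7.42, 7.33 and 6.17 by night in pineal, against 13.82, 14.28, 14.12, 13.64 and 13.65 in brain. Every brain array was near the top of the scale and the groups did not overlap, giving a difference of -6.50 ± 0.64, or 90.5-fold (limma adjusted p = 2.13e-12). The troponin C gene tnnc2.2 differed by -7.13 ± 0.57, the troponin T gene tnnt3b by -6.03 ± 0.54 and the muscle creatine kinase gene ckma by -5.31 ± 0.53. The actin gene actc1b differed by -5.17 ± 0.46, and a second probe set by -5.05. The 2 other actc1b sets, dim in both tissues, differed by 0.20 and 0.30. Of the 25 genes lowest in pineal relative to brain, 19 were on the muscle list, and their arrays did not overlap for any of the 25. They too were picked for large differences on the same arrays, so neither count is a separate result.

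Summed intensity of the 54 muscle genes was 14674 to 39939 on pineal arrays, 195749 to 253667 on brain day arrays and 95232 to 116424 on brain night arrays. The brain samples thus carried strong muscle signal. Its part in other differences was not tested.

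Cartilage genes behaved alike. Of 42 genes of connective tissue, cartilage and bone, 19 were lower in pineal (45.2%, against 4.04% of all genes). None of the 42 was higher, and the median was -0.98. The cartilage matrix gene matn1 measured 4.61, 6.64, 5.54, 4.37 and 6.59 by day and 5.89, 7.36, 6.53 and 5.30 by night in pineal, and 12.09, 12.71, 10.95, 11.03 and 10.42 in brain. The brain arrays were all far higher, with brain night replicate 2 lowest among them, and the difference was -5.41 ± 0.40, or 42.6-fold (limma adjusted p = 8.04e-17). Collagen genes col2a1a (-2.46 ± 0.38), col9a2 (-3.19 ± 0.36) and col10a1a (-3.32 ± 0.43) were lower too. Summed intensity of the list was 17828 to 30622 in pineal and 46863 to 95386 in brain.

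**Figure D4:**
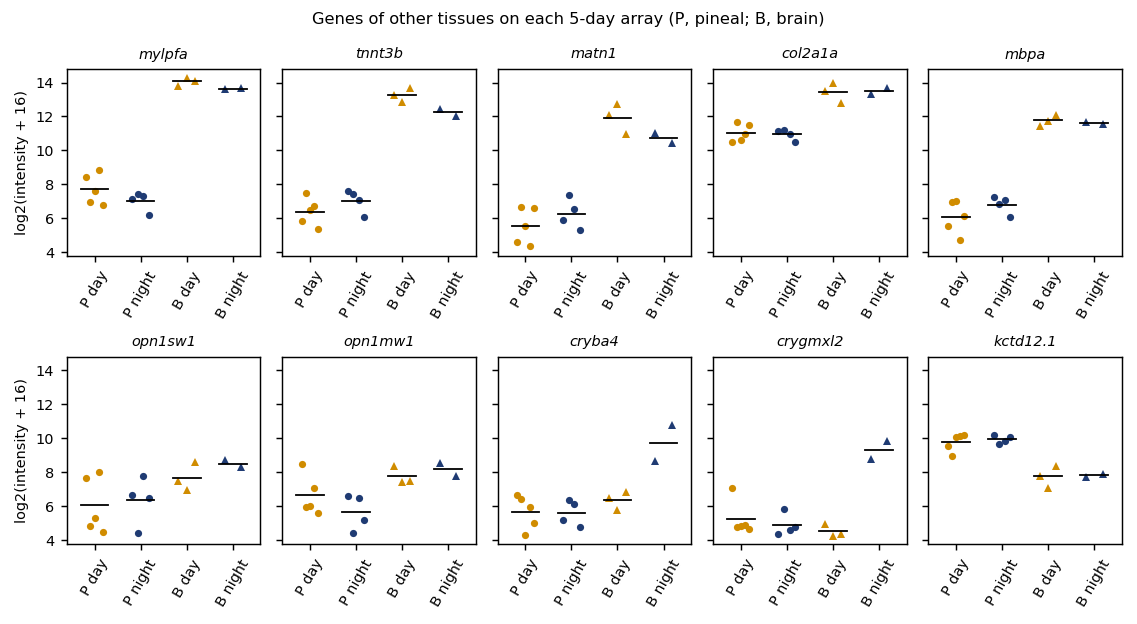
Levels of 10 genes of muscle, cartilage, myelin, eye and habenula on each 5-day array, as log2(intensity + 16). Each point is 1 array and each black line a group mean. Group means of the muscle, cartilage and myelin genes are higher in brain than in pineal. The gene crygmxl2 is high on both brain night arrays (8.78 and 9.84) alone, apart from pineal day replicate 1 at 7.06.

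The glycolysis gene gapdh measured 5.79, 7.51, 7.80, 8.22 and 7.93 by day and 7.5, 7.56, 7.01 and 8.37 by night in pineal. Brain arrays measured 12.41, 11.35, 13.77, 12.49 and 12.24. The tissues were far apart, at a difference of -4.91 ± 0.43 (limma adjusted p = 5.20e-14). Among 92 genes of oxidative phosphorylation and glycolysis, 4 were lower (4.35%, against 4.04% of all genes), among them gapdh, which is also on the muscle list. A single gene was higher (1.09%, against 1.63%), the cytochrome oxidase gene cox4i2 (1.22 ± 0.24). The median was -0.36, and 83 of the 92 had a negative difference, against 4404 of all 8793 genes. Without brain day replicate 1, 7 were called lower, and 9 with day arrays only.

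Skin genes went both ways (47 measured, median 0.08). Of these, 2 were higher (4.26%, against 1.63% of all genes) and 3 lower (6.38%, against 4.04%). The keratin genes krt1-19d (-3.83 ± 0.46) and krt94 (-2.53 ± 0.43) were lower in pineal although brain day replicate 2 was nearly as low as the pineal arrays (6.56 and 6.76). The keratin gene krt17 was higher (1.3 ± 0.37), a call lost without brain day replicate 3 (1.08) or brain night replicate 2 (1.09). The other higher one, krt5, lost its call in 10 of the 14 fits that left out 1 array (difference from 0.77 to 1.73). Vessel genes were lower in 6 of 15 cases (40.0%, against 4.04% of all genes), and 1 was higher (6.67%, against 1.63%). The lower ones included the endothelial receptor gene kdrl (-1.43 ± 0.36) and the tropomyosin gene tpm1 (-3.48 ± 0.39). The single higher call was lost without pineal day replicate 2, pineal night replicates 1 or 3 or brain night replicate 2. Blood and immune cells had 2 lower genes each, of 15 (13.3%) and 34 (5.88%) measured, against 4.04% of all genes, and 0 higher. The lower immune genes included mpx (-1.68), whose further probe sets, dim in both tissues, differed by 0.93, 0.47 and 0.39. In blood 1 was called without brain night replicate 1, and in immune cells 1 in 7 of the 14 fits that left out 1 array.

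Of 83 genes of cell division, 3 were higher (3.61%, against 1.63% of all genes) and 0 were lower (against 4.04%). The median of the 83 was 0.29, and the higher count went from 0 without brain night replicate 2 to 6 without brain day replicate 3. Further probe sets of mki67, 1 of the 3 called, differed by 0.09 and -0.19. Of 83 genes of Notch, Wnt, Fgf, Bmp and Hedgehog signalling, 4 were higher (4.82%, against 1.63%) and 5 were lower (6.02%, against 4.04%). The growth factor gene fgf8a (1.72 ± 0.40) and the Wnt receptor gene fzd10 (1.35 ± 0.24) were higher, and shha (-1.19 ± 0.24), the ventral midline signal, and wnt11 (-1.24 ± 0.21) were lower. The higher count became 8 without pineal day replicate 2 and 7 without brain day replicate 3. Among 50 genes of light response, DNA repair and stress 3 were lower (6.0%, against 4.04%). This count was 1 without brain day replicate 1, brain day replicate 3 or brain night replicate 1. Among 14 genes of pigment cells and retinal pigment epithelium 2 were higher (14.3%, against 1.63%), or 1 without either brain night array. The 2 were rpe65a and gch2, which are also on the lists of retinoid handling and melatonin synthesis above. The 1 that was lower, bhmt, lost its call in 9 of the 14 fits that left out 1 array (difference from -1.67 to -1.29).

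Whether the tissue difference changed between day and night was tested directly, asking for an adjusted p below 0.05 with no fold limit. This interaction was called for 4 probe sets (0.0258%), all of them with a pineal-minus-brain difference that was lower by night. The named one was crygmxl2, a gamma crystallin gene of the lens, at 4.96, 4.25 and 4.36 on brain day arrays and 8.78 and 9.84 on brain night arrays. Pineal arrays ran from 4.38 to 7.06. The 2 brain night arrays were the highest, with pineal day replicate 1 next, and the difference was 0.72 by day and -4.42 by night (change -5.14 ± 0.78, limma adjusted p = 7.82e-05).

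A probe set that carries several gamma crystallin symbols, and so was not assigned to a gene, measured 13.71 and 13.97 on brain night arrays and 4.48 to 7.98 on the other 12 (change -7.09 ± 0.83, limma adjusted p = 5.95e-08). Another such set measured 9.94 and 9.99 on the brain night arrays (change -4.68 ± 0.81). Eyes had been removed from the brain samples by design. Summed intensity of 18 retinal opsin and crystallin genes was 546 to 1961 in pineal, 1068 to 1371 in brain by day and 2503 to 5242 in brain by night. Of these 18 genes, 5 were called lower in pineal averaged over both times (27.8%, against 4.04% of all genes). The count was 3 when either brain night array was left out, and 0 with day arrays only. The 5 were cryba4 (-2.39 ± 0.41), crygmxl2 (-1.85 ± 0.39), crybb1 (-1.60 ± 0.47) and the cone opsin genes opn1sw1 (-1.89 ± 0.56) and opn1mw1 (-1.81 ± 0.46). The list's median difference was 0.07, with 9 genes above 0 and 9 below. The lens gene cryaa was not called, at 0.69 with an added constant of 1 and 0.27 with 64. What part eye or lens RNA in the brain night arrays had in the phototransduction differences by night was not tested.

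Other ages served as independent arrays for the differences found at 5 days. Of the 283 probe sets that were higher in pineal at 5 days, 258 (91.2%) were positive at 3 days, against 53.4% of all probe sets, and 245 (86.6%) at 10 days, against 50.6%. At 3 months and at 1 to 2 years 191 were positive (67.5% at each), against 47.1% and 48.1%. Their median difference of 1.40 at 5 days compares with 1.03 for the younger and 0.84 for the older larvae, 0.58 for 3-month-old fish and 0.60 for the oldest fish. The probe sets that were lower behaved differently. Of 520, 499 were negative at 3 days (96.0%, against 46.6% of all) and 465 at 10 days (89.4%, against 49.4%), but only 244 at 3 months (46.9%, against 52.9%) and 255 at 1 to 2 years (49.0%, against 51.9%). Their median of -1.68 at 5 days compares with -1.34 at 3 days and -0.87 at 10 days, and with 0.08 and 0.03 at the adult ages.

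The tissue difference at 5 days was set against that at 3 and 10 days, weighted equally. With an adjusted p below 0.05 and no fold limit, 9 probe sets were called (0.0581%), 4 with a larger (0.0258%) and 5 with a smaller (0.0323%) pineal-minus-brain value at 5 days. Of the 5, cryba4 (-2.31) and crygmxl2 (-2.39) are lens crystallin genes, 1 was the unassigned gamma crystallin set (-3.41), and the remaining ones were usp3 (-1.3) and tgfbi (-1.31). The 4 others were map7d1a (1.57), b4galt6 (0.85), mpnd (1.21) and an unnamed set (2.74). This count moved between 2 and 62 when single arrays were left out. It was 62 without brain day replicate 3, 2 without brain day replicate 1, brain day replicate 2 or brain night replicate 2, 3 without pineal night replicate 4 or brain night replicate 1, and 4 without pineal day replicate 3 or pineal night replicate 3.

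Against the mean of both adult ages, the 5-day difference changed for 3488 probe sets (22.5%), by adjusted p and at least 2-fold. Of these the signed pineal-minus-brain value was larger at 5 days for 1643 (10.6%) and smaller for 1845 (11.9%). Without scaling between arrays the split was 1110 and 2631, and with median centring it was 1993 and 1690. With 1 probe set per gene, the value at 5 days was larger for 868 of 8793 genes and smaller for 1149. Of the 27 phototransduction genes, 19 had a smaller difference at 5 days and 1 a larger one, rgs9b. The median difference of these 27 genes was 0.96 at 5 days, lower than at 3 days (1.79), 10 days (1.37), 3 months (3.84) and 1 to 2 years (4.83). None of the 27 genes was called in the test of 5 days against 3 and 10 days. For pde6c the difference was 1.62 at 5 days against 6.23 and 6.83 at the adult ages, and for guca1aa it was 1.65, 6.81 and 6.99. The melatonin genes tph2 (2.04, 5.47 and 5.83) and aanat2 (2.90, 4.83 and 5.36) also had smaller differences at 5 days. By contrast noto stood at 5.01, 5.22 and 5.45, with no call against adults (limma adjusted p = 0.72).

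Several genes were higher in pineal at 5 days but lower in adults. The difference of kctd12.1 was 2.08 in 5-day, 2.70 in 3-day and 1.72 in 10-day larvae, and it was -1.07 at 3 months and -1.0 at 1 to 2 years (5 days minus adults 3.11, limma adjusted p = 4.88e-11). For tbr1b it was 2.09 at 5 days against -2.41 and -2.57 at the adult ages, and for zic5 1.57, -1.74 and -2.45. The natriuretic peptide gene nppcl passed from 1.58 at 5 days to -2.82 and -4.02 in adults. The factor genes otx1 (2.4, 0.38 and 0.51) and lhx9 (0.73, -2.60 and -2.43), the latter a LIM homeobox gene, also had larger differences at 5 days. Of 70 patterning factors, 24 had a larger difference at 5 days than in adults and 13 a smaller one, against 868 and 1149 of all 8793 genes. Of 40 neuronal genes, 29 had a larger one and 2 a smaller one, and their median difference was -0.02 at 5 days against -1.95 and -2.05 at the adult ages.

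Differences of muscle, cartilage and skin genes at 5 days were also unlike those of adults. The muscle median of -3.14 at 5 days lay beside -2.80 and -1.74 in younger and older larvae and 0.30 and 0.22 at the adult ages, and 47 of 54 genes had a more negative difference at 5 days than in adults by the same test. For mylpfa it was -6.50 at 5 days and 1.06 and 0.31 in adults. For matn1 it was -7.5 in 3-day, -5.41 in 5-day and -1.70 in 10-day larvae, and 0.67 and -0.13 in adults. The skin list had a median of 0.08 at 5 days and of 2.45 and 2.67 in adults, with krt1-19d at -3.83, 2.84 and 4.2. Adult pineal arrays thus carried more skin signal relative to brain than 5-day pineal arrays did. Its part in the comparison of ages was not tested.

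**Figure D5:**
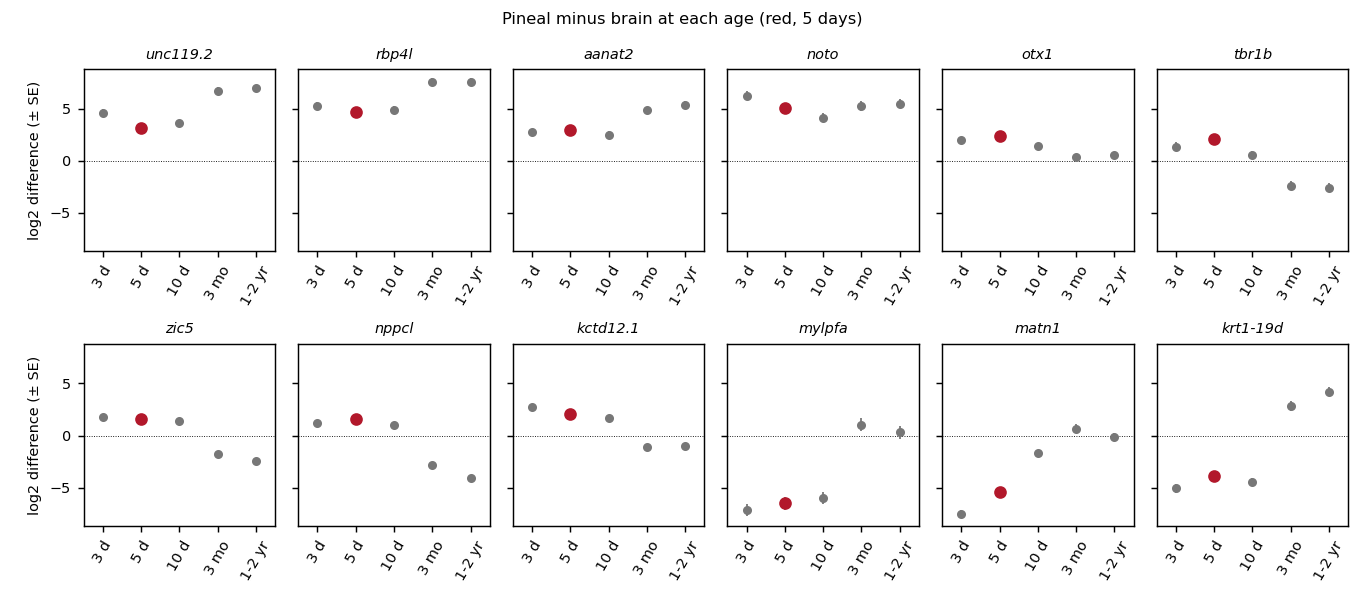
Log2 difference between pineal and brain, with its SE, for 12 genes in larvae of 3, 5 (red) and 10 days and in fish of 3 months and of 1 to 2 years. Points above 0 mean a higher level in pineal. At 5 days unc119.2, rbp4l and aanat2 lie above 0 and below their adult values, tbr1b, zic5, nppcl and kctd12.1 are above 0 at 5 days and below 0 in adults, and mylpfa is far below 0 in larvae and at 1.06 and 0.31 in adults, and matn1 is at -7.5 at 3 days, -1.70 at 10 days and 0.67 and -0.13 in adults.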

How the data were processed

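Expression was measured on 69 one-colour Affymetrix Zebrafish Genome Arrays, of which 14 form the 5-day comparison. Per the labels, total RNA was amplified and labelled with biotin. The deposited value is 1 linear intensity per probe set, scaled by the authors to a common target, since the mean of each array without its extreme values lay between 500.1 and 500.2. The probe summary method and background correction are not given in the sources used here.

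A constant of 16 was added and log2 taken. Array medians then spanned 0.87, above a limit of 0.5, so the values were quantile normalised. The 115 control probe sets were left out of 15617. Of the 15502 tested, 10795 had 1 symbol in the platform annotation, 135 had several and 4572 were unnamed. Where a gene had several probe sets, the one with the highest mean level on the 69 arrays stood for it. Called genes named here had 40 further probe sets, of which 15 were called in the same direction and 8 had the opposite sign.

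Means of 20 groups were fitted with limma 3.58.1 in R 4.3.3 (eBayes with a trend, 49 residual and 14.3 prior degrees of freedom). Contrasts were tested two-sided with Benjamini-Hochberg adjustment within each contrast, and the steps were tested on simulated data. There, 71% of simulated log2 changes of 1.5 were called, and 7% of those of 0.75, which lie under the fold limit. The p-values rest on a spread pooled over the 20 groups of all 69 arrays, not on that of the 14 compared arrays alone. With only those 14 arrays fitted, 517 probe sets were called for pineal against brain instead of 803. The number of arrays limits the precision.

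The members and gene lists were chosen with earlier results of these data known. Genes named were the 25 largest rises and falls with the same sign by day and night, those called in the other contrasts (up to 10 each), any member of the 5 pineal lists, up to 8 called members of each other list and the cell type markers. Clone-type names were not quoted.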

Additional observations from a re-analysis of the deposited data

Results flagged for a closer look

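Single arrays were compared with the rest of their group for the genes with the largest changes, the genes of the other contrasts and the marker genes, and for 3 quality measures. Of 172 such tests in the 2 pineal groups 17 gave an array far from the others, where chance gives about 1 in 20. Of the 17, 5 were on pineal day replicate 2, 5 on pineal night replicate 4, 4 on pineal day replicate 1, 2 on pineal day replicate 5 and 1 on pineal night replicate 3.

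Pineal day replicate 2 was low in gngt1 (10.74, others 12.62 to 13.37), in elavl3 (9.60, others 11.77 to 12.50) and in snap25a (9.17, others 11.15 to 11.47). It was high in pvalb1 (11.89, others 8.56 to 9.15) and in its GAPDH 3'/5' ratio (3.70, others 1.36 to 1.79). Pineal night replicate 4 was high in gngt2a (11.01, others 10.37 to 10.46) and tph1a (10.45, others 9.16 to 9.32). It was low in elavl3 (11.59, others 12.01 to 12.07), in snap25a (11.12, others 11.59 to 11.66) and in its median correlation with its own group (0.884, others 0.913).

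Pineal day replicate 1 was low in nr2e3 (9.40, others 9.82 to 9.98) and icn (11.67, others 12.79 to 13.14) and high in hsd17b8 (8.75, others 6.94 to 7.10) and crygmxl2 (7.06, others 4.68 to 4.88). Pineal day replicate 5 was high in rpe65a (13.34, others 11.58 to 11.87) and low in tnni2a.4 (4.47, others 6.16 to 6.85). Pineal night replicate 3 was low in mylz3 (4.83, others 7.34 to 7.73).

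The tissue difference changed between day and night for 4 probe sets, by the limma interaction test. The night-minus-day changes were -5.14 for crygmxl2, -7.09 and -4.68 for the 2 sets with several gamma crystallin symbols and -4.52 for a set with a clone-type name.

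The tissue difference at 5 days differed from that at 3 and 10 days by -2.31 for cryba4, -2.39 for crygmxl2, -3.41 for the unassigned crystallin set, -1.30 for usp3 and -1.31 for tgfbi. It differed by 1.57 for map7d1a, 0.85 for b4galt6, 1.21 for mpnd and 2.74 for an unnamed set. Against adults, the 10 named genes of smallest adjusted p were nppcl (5.00), marcksb (2.28), emp2 (-3.82), krt1-19d (-7.35), fthl30 (-4.19), ahcy (-3.34), icn (-4.09), gapdh (-6.40), matn1 (-5.68) and hsd17b8 (-5.33).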

How the results depend on the processing

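The 803 calls for pineal against brain became 534 with dim probe sets left out (8539 tested), 517 with only the 14 arrays fitted and 320 with night arrays only. They ranged from 552 without brain night replicate 1 to 912 without brain day replicate 3, with 570 without brain night replicate 2. The counts of higher and lower probe sets were 204 and 330, 181 and 336, and 100 and 220 under the first 3 of these settings. The 4 calls for tissue by time of day became 2 with an added constant of 1, 8 with a constant of 64, 1 without dim probe sets, 7 with array weights and 4 to 9 with single arrays left out (9 without brain day replicate 3, 8 without pineal day replicate 3 or brain night replicate 1). The 9 calls against 3 and 10 days became 5 without scaling, 27 with a constant of 64, 5 without dim probe sets, 1 with only the ages compared, 64 with array weights, 2 without both arrays of high GAPDH ratio and 2 to 62 with single arrays left out. The calls against adults ranged from 2964 to 3683 with single arrays left out. The difference of crygmxl2 turned to 0.72 with day arrays only. Leaving out both arrays of high GAPDH ratio and comparing by day or by night only were chosen after seeing the data. The causes of these shifts were not tested. Of 164 named genes called, 86 kept their call in each alternative that tested them and 78 lost it in at least 1. Genes that the filter on dim probe sets left out, hoxd4a among them, were not counted as lost there.

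The main fit did not pair samples by replicate number. Deviations of same-numbered pineal and brain arrays had a median correlation of 0.063 (1 of 5 over 0.1). Those with different numbers had a median of -0.009 (3 of 18 over 0.1). The 2 brain night arrays deviate from their mean by equal and opposite amounts, so the night correlations cannot show a pairing. Whether the numbers pair the samples was thus not decided. With a replicate block 683 probe sets were called (591 shared with the 803), 8 by time of day and 7 against 3 and 10 days. With the replicate as a random block (correlation within blocks 0.116) the counts were 880, 7 and 18.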
